A study of Mus musculus with 60 samples.

Results

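The Slc25 family, the carriers that move metabolites across the inner mitochondrial membrane, was followed through whole brown and subcutaneous fat of mice whose regulatory T cells (Treg cells) were or were not targeted for depletion. Its members were taken as every gene of the count table with a symbol made of Slc25a and a number, which gave 47 of 55011 genes. A mean of at least 1 CPM (the counts-per-million unit: a gene's counts relative to all counts of its library) over the 52 whole-fat libraries was asked of an expressed member, and 39 of the 47 met it. Slc25a2, Slc25a13, Slc25a18, Slc25a21, Slc25a31, Slc25a41, Slc25a43 and Slc25a54 did not. The study sequenced the polyadenylated RNA of whole brown adipose tissue (BAT, 38 libraries in 12 groups) and subcutaneous adipose tissue (SAT, 14 libraries in 4 groups), with 8 libraries of sorted Treg cells beside them. Its labelled purpose was to profile fat with and without Treg cells under several conditions.

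All mice were males of 8 weeks. Mice of the strain B6.Foxp3.DTR carried (DTR+) or lacked (DTR-) a diphtheria toxin receptor driven by Foxp3, the gene that defines Treg cells, and both genotypes were labelled as given diphtheria toxin (DT), so the toxin was shared and the receptor differed. DTR- and DTR+ groups existed in BAT and SAT for a series labelled D4 (4 libraries per group) and a series labelled D3 (3 libraries per group). The labels do not say what D3 and D4 stand for, and the D3 titles read PBS where the treatment label reads DT. Every other group held 3 libraries of BAT. Of B6.Foxp3.DTR mice given DT there were DTR- with CL, DTR- with PBS, DTR+ with CL, DTR+ with an anti-IFNg antibody and DTR+ with an isotype control antibody. CL is not spelled out, and is taken here for the agonist of the beta-3 adrenergic receptor that goes by those letters, a drug that switches on brown fat as cold does. Wild-type C57BL/6J mice received the anti-CD25 antibody PC61, which binds a receptor chain abundant on Treg cells, or an isotype control. The last group was kept at 4 degrees and labelled PBS; its titles read WT, its genotype label DTR- and its strain B6.Foxp3.DTR, with no mention of DT. No label says that libraries of a group came from different animals, so p-values measure the spread between libraries, which may be partly technical.

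The inner mitochondrial membrane is closed to most charged solutes, and each Slc25 carrier exchanges or cotransports a narrow set of them: ADP for ATP, phosphate, acylcarnitines, citrate, amino acids, nucleotides or cofactors. Brown fat burns fatty acids in densely packed mitochondria, where uncoupling protein 1 (Ucp1), itself a relative of the Slc25 carriers, lets protons return without making ATP. In white fat, carriers hand citrate and dicarboxylates to the cytosol, where they feed fatty acid synthesis and glyceroneogenesis.

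Whole-fat libraries held 3007241 to 9673342 counts. Whole-fat levels below are CPM scaled by the trimmed mean of M-values (TMM) over the 52 libraries, unless said otherwise. Levels in Treg libraries are CPM by library totals alone. Folds and tests come from edgeR's quasi-likelihood test with Benjamini-Hochberg adjustment over all genes tested, at a threshold of 0.05. Foxp3 itself gave between 0 and 31 counts summed over each whole-fat group, and 0 in the DTR+ BAT group of D4, which allows up to 0.146 CPM over that group, so these libraries are too shallow in Treg RNA to check the depletion. The 6 brown adipocyte markers summed to 14645 to 17848 CPM in DTR- BAT of D4 and to 242 to 641 CPM in the matching SAT, as the tissue labels say. Skeletal muscle markers ranged from 14.8 to 2287 CPM among those 4 BAT libraries alone. In whole tissue, fewer cells of a type and less RNA per cell cannot be told apart.

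Carriers were ordered by level per kilobase of their main coding transcript. In DTR- BAT of D4 the order was led by Slc25a1, the citrate carrier, at 872 ± 178 CPM per kilobase (SD, n = 4), and Slc25a5, an ADP/ATP carrier, at 796 ± 35.4. A further 4 carriers followed close together: Slc25a4, the other main ADP/ATP carrier, at 524 ± 12.3, Slc25a39, a glutathione importer, at 521 ± 47.6, Slc25a20, the carnitine-acylcarnitine carrier, at 518 ± 44.8, and Slc25a3, the phosphate carrier, at 503 ± 71.3. These 4 do not differ beyond their spread, nor do Slc25a1 and Slc25a5. Slc25a11, the oxoglutarate-malate carrier, stood lower, at 239.8 ± 34.6 CPM per kilobase.

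The order in DTR- SAT of D4 was different below its first place. Slc25a1 again led at 1110.0 ± 303 CPM per kilobase (SD, n = 4), followed by Slc25a3 at 505 ± 57.7 and Slc25a5 at 504 ± 29.6, which do not differ beyond their spread. Slc25a10, the dicarboxylate carrier, came next at 264 ± 60.5, near Slc25a39 at 223 ± 32.9 and Slc25a4 at 204 ± 19.5. Slc25a20 stood at 57.5 ± 11.5 CPM per kilobase.

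**Figure D1:**
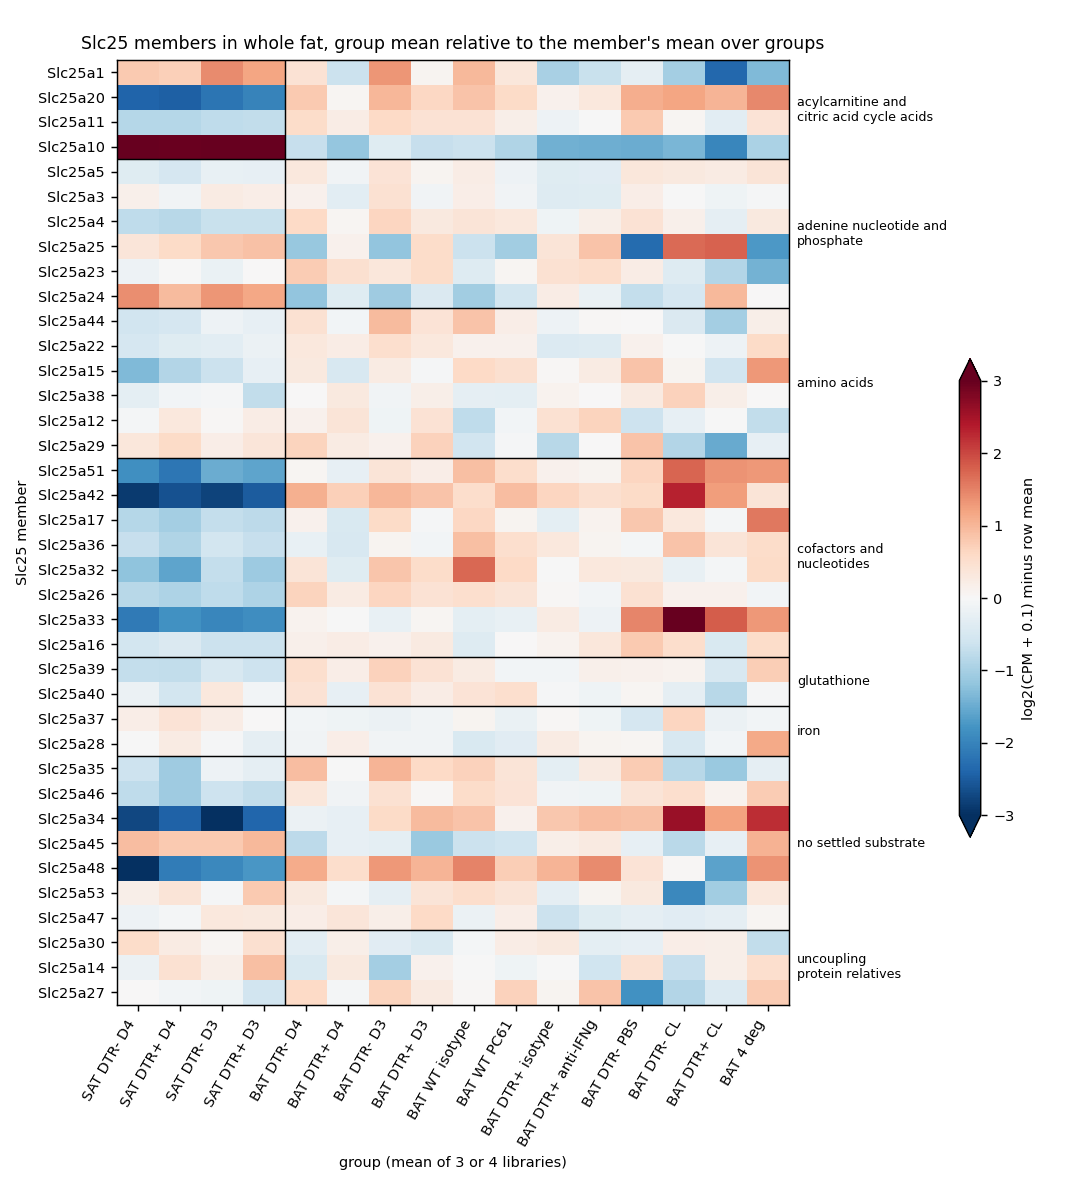
Heat map of 38 expressed carriers (rows, grouped by role) across the 16 whole-fat groups (columns); colour gives each group's mean log2 level relative to the carrier's mean over groups. Slc25a10 stands high in the 4 SAT groups, Slc25a20 and Slc25a42 stand low there, and Slc25a25 is highest in the 2 groups given CL.

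The 10 carriers with the widest span of group means over the 16 groups were Slc25a33, Slc25a34, Slc25a10, Slc25a42, Slc25a48, Slc25a25, Slc25a51, Slc25a20, Slc25a1 and Slc25a32. Slc25a33 (a pyrimidine nucleotide carrier, gene at chr4:149744036-149774277 of mm10, minus strand) ranged 57.6-fold, from 2.45 CPM in DTR- SAT of D4 to 141 CPM in DTR- BAT given CL. That upper mean, and so the span, leans on 1 library, as the CL libraries read 66.1, 266 and 91.4 CPM. Slc25a10 (chr11:120491840-120499187, plus strand) ranged 45.5-fold between DTR- SAT of D3 at 661 CPM and DTR+ BAT given CL at 14.5 CPM. Slc25a25 (chr2:32414487-32451445, minus strand), a calcium-regulated exchanger of ATP-magnesium for phosphate, ranged 17.0-fold, from 8.99 CPM in the PBS group to 153 CPM in DTR+ BAT given CL. Among these 10, then, 5 peaked in a group given CL, 2 in DTR- SAT of D3, 2 in the isotype group of wild-type BAT and 1, Slc25a20, at 4 degrees.

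The start regions of Slc25a25 and Slc25a36 are shown because they are the only 2 of the 39 RefSeq promoter windows of expressed carriers (each 250 bases before to 50 after an annotated start, build GRCm38.p6) that hold the cAMP response element TGACGTCA, and because both genes rose with CL, as given below. cAMP is the messenger made on beta-adrenergic stimulation. Both sequences read 5′ to 3′ on the gene's strand, the minus strand of the chromosome, with the element in capitals; that of Slc25a36 stops where its annotated exons begin.
Slc25a25, chr2:32424067-32424316: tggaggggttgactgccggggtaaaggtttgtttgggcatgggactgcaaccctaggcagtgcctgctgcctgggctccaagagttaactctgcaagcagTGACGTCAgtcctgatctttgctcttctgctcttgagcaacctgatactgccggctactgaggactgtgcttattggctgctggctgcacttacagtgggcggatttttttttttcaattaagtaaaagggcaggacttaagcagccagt
Slc25a36, chr9:97111158-97111291: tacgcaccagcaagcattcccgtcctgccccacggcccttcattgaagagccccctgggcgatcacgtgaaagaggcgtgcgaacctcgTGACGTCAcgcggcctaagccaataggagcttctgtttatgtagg
The element lies 150 bases before the RefSeq start in Slc25a25 and 161 before the RefSeq start in Slc25a36. That second start lies inside the annotated gene, so the element is nearer to the gene's outermost end, where the printed sequence stops. The element was found in 588 of the 32851 promoter windows of that length, or 1.79%. The start shown for Slc25a25 is the innermost of its 3 annotated ones and lies in an intron of the longer transcripts; counts per gene do not tell the starts apart. The 5-base core TGACG, which every full element contains, was in 12 of the 39 windows against 20.8% of all windows. Of other carriers that rose with CL, Slc25a33 held it at 28 and 4 bases before the start. No window of Slc25a42 or Slc25a34 held it, and Slc25a51 had no window. The core was also found in Slc25a1, which fell with CL. Its other holders were Slc25a3, Slc25a14, Slc25a16, Slc25a28, Slc25a40, Slc25a48 and Slc25a53, none of them called with CL. The motif was picked with the response to CL known, 36 of the 47 members had a window, and a match is only a match of letters.

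Brown and subcutaneous fat differed in most of the family. In DTR- mice of D4, 22 of 39 expressed carriers were higher in BAT and 5 were lower, where 25.9% of all genes tested were higher and 25% lower (50.9% either way). The median carrier was 0.72 higher in BAT on the log2 scale, beside a median of 0.01 over all genes. In D3 the counts were 22 higher and 4 lower, with a median of 0.79, where 45.9% of all genes were called. The depots did not overlap in 27 of 39 carriers and 47.9% of all genes tested in D4, and in 26 and 56.7% in D3.

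Carriers of fuel acids parted company between the depots. Slc25a20, which brings acylcarnitines in for beta-oxidation (gene at chr9:108662088-108684641, plus strand), read 1025, 947, 848 and 872 CPM in the 4 BAT libraries and 83.5, 90.3, 129.5 and 106 CPM in the 4 SAT libraries of D4, with no overlap, a log2 difference of 3.19 ± 0.14 (SE), adjusted p = 8.74e-10. Slc25a10, which exchanges malate and succinate for phosphate, went the other way: 42.9, 38.9, 34.4 and 23.2 CPM in BAT against 407, 645, 633 and 451 CPM in SAT, -3.91 ± 0.21 (SE), adjusted p = 5.13e-08. The 2 groups of each of these genes stand far apart. In D3 the differences were 3.23 ± 0.17 and -3.90 ± 0.16. Slc25a11, part of the malate-aspartate shuttle, was higher in BAT by 1.43 ± 0.11 in D4 and 1.40 ± 0.12 in D3, though its gene overlaps Rnf167 on the other strand and counting by strand is not stated. Slc25a1 did not differ by the test in D4 (-0.32 ± 0.20 (SE), adjusted p = 0.216). Of 7 genes around citrate and fatty acid synthesis 5 were higher in BAT and 0 lower, in D4 (median 1.18) and in D3 (median 1.03).

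Every cofactor and nucleotide carrier, 9 of 9, was higher in BAT in both D4 (median 1.61) and D3 (median 1.55). Slc25a42, which imports coenzyme A (chr8:70184340-70212305, minus strand), read 304, 185, 203 and 222 CPM in BAT and 19.4, 14.1, 11.9 and 13.4 CPM in SAT of D4, a difference of 3.98 ± 0.19 (SE), adjusted p = 2.70e-09. Slc25a51, the NAD importer, was higher by 1.92 ± 0.12, Slc25a17, a peroxisomal carrier of coenzyme A and other cofactors, by 1.01 ± 0.11, and Slc25a26, which brings in S-adenosylmethionine, by 1.53 ± 0.18. The call of Slc25a16 was lost in D4 without the first BAT library and in D3 without the second BAT or the first SAT library. Slc25a33 was 11.8 CPM in BAT on average and 2.45 CPM in SAT, 2.26 ± 0.37 (SE), adjusted p = 0.000135.

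The ADP/ATP carriers were moderately higher in BAT, Slc25a4 by 1.39 ± 0.10 and Slc25a5 by 0.68 ± 0.09; reads of Slc25a5 may be shared with its pseudogene Slc25a5-ps. Slc25a3 averaged 811 ± 115 (SD, n = 4) CPM in BAT and 814 ± 92.9 (SD, n = 4) CPM in SAT, within each other's spread. The calcium-regulated ATP-magnesium carriers did not move together. Slc25a23 was called higher in BAT, at 82.3, 81.4, 59.8 and 70.3 CPM against 39.4, 37.5, 38.9 and 39.5 CPM in SAT. Slc25a24 was lower in BAT by a log2 difference of -2.60 ± 0.35 and Slc25a25 by -1.47 ± 0.31 (SE), adjusted p = 0.00226. Slc25a25 read 23.0, 11.4, 32.5 and 15.3 CPM in BAT and 39.0, 62.0, 63.4 and 69.3 CPM in SAT, without overlap.

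Of the amino acid carriers, Slc25a44, which imports branched-chain amino acids into brown fat mitochondria, was higher in BAT by 1.05 ± 0.16 (SE), adjusted p = 0.000137, and 3 of 6 in the class were higher. The glutathione importer Slc25a39 was higher by 1.25 ± 0.12. The iron importer Slc25a37 (mitoferrin 1) did not pass (-0.26 ± 0.19 (SE), adjusted p = 0.258), and neither did Slc25a28 (mitoferrin 2). Of carriers grouped here as without a settled substrate, Slc25a35 was higher by 1.55 ± 0.14, Slc25a46 by 1.14 ± 0.12 and Slc25a34 by 2.64 ± 0.46. Slc25a48, placed in the same group, was higher by 4.31 ± 0.40, from 0.554 ± 0.310 CPM in SAT to 11.3 ± 1.80 CPM in BAT (SD, n = 4). Slc25a45 was lower in BAT by a log2 difference of -1.68 ± 0.34, and so was Slc25a30, a relative of the uncoupling proteins, at -0.85 ± 0.22.

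**Figure D2:**
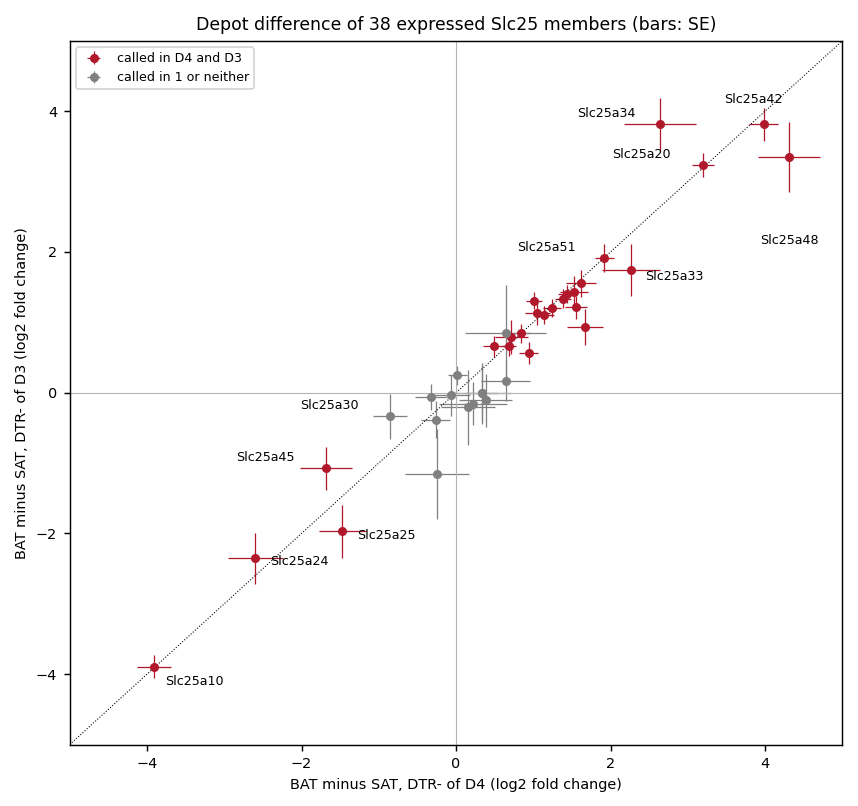
Difference between BAT and SAT for the same 38 carriers in DTR- mice, log2 scale, in D4 (horizontal axis) and D3 (vertical axis); the 2 axes come from separate libraries. Slc25a42 and Slc25a20 lie above 3 on both axes and Slc25a10 lies near -3.9 on both.

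Most genes of the machinery around the carriers were also higher in BAT. All 29 tested nuclear genes of the respiratory complexes were higher (median 2.30 in D4 and 2.18 in D3), beside the carriers' medians of 0.72 and 0.79. Of 10 genes of the TIM22 route, which inserts carriers into the inner membrane, 9 were higher in D4 and 7 in D3, with Timm9 at 2.10 ± 0.19 and Timm10 at 1.70 ± 0.14. Of 5 carnitine enzymes and transporters 4 were higher and 1, Cpt1a, the form common in liver and white fat, was lower, by a log2 difference of -2.25 ± 0.25. The higher ones included Cpt1b, the muscle and brown fat carnitine palmitoyltransferase, at 6.07 ± 0.38 and Cpt2, which works beside Slc25a20, at 1.82 ± 0.10. Macrophage markers summed to 165 to 384 CPM in BAT and 1012 to 2651 CPM in SAT of D4 with 8 of 8 lower in BAT, and 5 of 5 fibroblast markers were lower too; their part in the carriers' levels was not tested. Scaling by library totals alone put the median of all genes at -0.47 in D4 and -0.49 in D3 on the log2 scale and gave 20 carriers higher and 8 lower in D4, 25 of them among the 27 called with TMM, and 17 higher and 6 lower in D3. This scaling was added after the data had been seen. Under it Slc25a16 and Slc25a36 no longer passed in D4 or D3, nor did Slc25a5, Slc25a15 and Slc25a23 in D3, and in D4 Slc25a1 (-0.81), Slc25a3 (-0.46) and Slc25a37 (-0.75) were called lower in BAT.

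In D4 brown fat, 12 carriers fell and 1, Slc25a25, rose in DTR+ against DTR- mice, of 39 tested. Among all genes 16.1% were called in this comparison, 7.36% lower and 8.73% higher. The median carrier stood at -0.30 on the log2 scale, beside 0.02 for all genes. Groups without overlap were found for 16 of 39 carriers and for 21.3% of all genes tested. The DTR- libraries here are those that stood for BAT between the depots. The 47 carriers together summed to 8903 to 9889.6 CPM in the DTR- libraries and 6237 to 6763 CPM in the DTR+ libraries.

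Of 4 acid carriers 2 fell, Slc25a1 and Slc25a20. Slc25a1, which exports citrate for fatty acid synthesis (gene at chr16:17925223-17928219, minus strand), read 1080.4, 1778, 1572 and 1384 CPM in the 4 DTR- libraries and 613, 531, 934 and 647 CPM in the 4 DTR+ libraries. All 4 DTR+ libraries lay below the lowest DTR- library, and the gene fell by a log2 change of -1.04 ± 0.21 (SE), adjusted p = 0.0108. Slc25a20 read 1025, 947, 848 and 872 CPM without the receptor and 588, 608, 479.6 and 562 CPM with it, again without overlap, a change of -0.67 ± 0.09 (SE), adjusted p = 0.000153. Slc25a10 did not pass (-0.40 ± 0.21 (SE), adjusted p = 0.236), from 34.9 ± 8.51 CPM to 25.3 ± 7.66 CPM (SD, n = 4).

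Genes of related enzymes and carriers fell as well. Of 7 genes around citrate and fatty acid synthesis 4 fell (median -1.42). Acly, which splits exported citrate, fell by a log2 change of -2.29 ± 0.54 and fatty acid synthase Fasn by -1.54 ± 0.36. The elongase Elovl6 fell by -1.46 ± 0.24 and citrate synthase Cs by -0.55 ± 0.07. Of 5 carnitine genes 2 fell, Cpt2 by -0.71 ± 0.09 and carnitine acetyltransferase Crat by -0.43 ± 0.11. Both subunits of the mitochondrial pyruvate carrier, which belongs to another protein family, fell, Mpc1 by -0.80 ± 0.12 and Mpc2 by -0.65 ± 0.09, and so did both enzymes of the glycerol phosphate shuttle, Gpd1 by -0.90 ± 0.09 and Gpd2 by -1.08 ± 0.16. These lists were drawn up with earlier results of the same data known.

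Of 6 energy exchange carriers 3 fell and 1 rose. Slc25a4 read 976, 1011, 1020.2 and 1030.4 CPM in DTR- and 833, 625, 652 and 672 CPM in DTR+ libraries, a log2 change of -0.49 ± 0.09 (SE), adjusted p = 0.00196. Slc25a5 fell from 988 ± 43.9 to 739 ± 43.3 CPM (SD, n = 4; -0.37 ± 0.08 (SE), adjusted p = 0.0049). Slc25a3 fell by -0.39 ± 0.11 (SE), adjusted p = 0.0264, with its lowest DTR- library below its highest DTR+ library. Slc25a25 went up: 23.0, 11.4, 32.5 and 15.3 CPM in DTR- libraries became 47.5, 46.0, 56.0 and 48.0 CPM in DTR+ libraries, all 4 above the DTR- range, a change of 1.30 ± 0.27 (SE), adjusted p = 0.00612.

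The falls among cofactor carriers included Slc25a17 (-0.54 ± 0.11 (SE), adjusted p = 0.00294) and Slc25a32, a carrier of folate and FAD (-0.69 ± 0.16 (SE), adjusted p = 0.00661). Of the amino acid carriers, Slc25a44 fell from 178 ± 27.0 to 123 ± 10.8 CPM (-0.48 ± 0.12 (SE), adjusted p = 0.00953) and the ornithine carrier Slc25a15 by -0.71 ± 0.22 (SE), adjusted p = 0.0367. Among 8 genes of branched-chain amino acid breakdown 4 fell, led by Dld at -0.57 ± 0.09. The iron importer Slc25a28 was not called (0.35 ± 0.25 (SE), adjusted p = 0.408).

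Slc25a35, a carrier with no settled substrate that is abundant in brown fat, showed the most complete separation in its class. It read 269.8, 220.1, 215 and 242 CPM in DTR- libraries and 139, 95.1, 123 and 140.2 CPM in DTR+ libraries, a change of -0.88 ± 0.12 (SE), adjusted p = 0.000174. Slc25a46, which sits in the outer membrane and acts in mitochondrial shape, fell by -0.40 ± 0.10 (SE), adjusted p = 0.0143. Among 5 further members of the carrier superfamily, Ucp1 fell by -1.08 ± 0.09, Ucp3 by -0.92 ± 0.20 and Mtch2, an outer membrane insertase, by -0.53 ± 0.08, whereas Ucp2, the form common in immune cells, rose by 0.50 ± 0.12.

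Other mitochondrial genes and cell type markers moved in the same libraries. Of 29 nuclear respiratory genes 26 fell (median -0.42), of 13 mitochondrially encoded transcripts 6 fell (median -0.36), and of 10 TIM22 genes 1 fell, Timm8b at -0.46 ± 0.11. Brown adipocyte markers summed to 14645 to 17848 CPM in DTR- and 9343 to 11163 CPM in DTR+ libraries, and 4 of the 6 fell. Macrophage markers went from 165 to 384 CPM to 587 to 1277 CPM with 6 of 8 called higher, and T and NK cell markers from 5.67 to 7.56 CPM to 20.3 to 46.3 CPM with 3 of 3 tested higher. The part of these shifts in the carriers' levels was not tested.

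With library totals alone the median of all genes in this comparison stood at 0.27, and 2 carriers were called higher and 3 lower. The 3 that stayed lower were Slc25a1, Slc25a20 and Slc25a35, and Slc25a25 stayed higher, joined by Slc25a30 at 0.79, and among those that no longer passed though their sign held were Slc25a3, Slc25a4, Slc25a5, Slc25a15, Slc25a17, Slc25a32, Slc25a44 and Slc25a46. Without the 3 libraries whose muscle markers exceeded 1000 CPM, a limit set after the data had been seen, 7 carriers were called lower and 1 higher with 2 DTR- and 3 DTR+ libraries left, and Slc25a1, Slc25a3, Slc25a15, Slc25a32, Slc25a44 and Slc25a46 were not among them. Slc25a10 was, at -0.84. Slc25a15 also lost its call when any 1 of 6 single libraries was left out, and Slc25a3 with any 1 of 4.

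**Figure D3:**
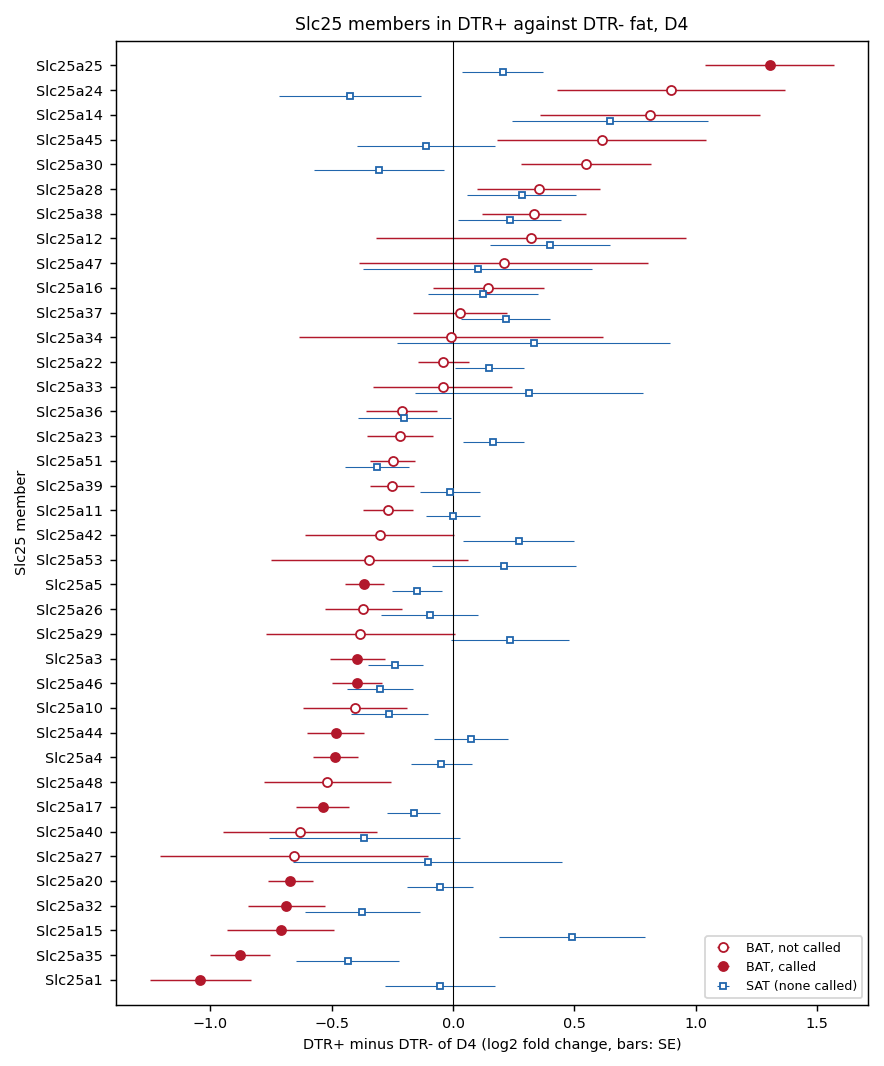
Log2 change from DTR- to DTR+ for 38 expressed carriers in D4, in BAT and in SAT, with standard errors; filled circles (BAT) passed the adjusted threshold. In BAT Slc25a25 is called higher and every other filled circle lower, and in SAT none is called.

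Subcutaneous fat of the same series showed 0 of 38 carriers called by edgeR, where 0.314% of all genes were called (0.0157% lower); 3 carriers were under 0.05 before adjustment, and DESeq2 gave 0 as well. The median carrier stood at -0.03. Slc25a20 read 83.5, 90.3, 129.5 and 106 CPM in DTR- and 93.5, 106, 101 and 91.4 CPM in DTR+ SAT, and Slc25a1 1247, 1979, 2454 and 1717 CPM and 1302, 1390.2, 2266 and 2114 CPM, with overlapping groups for both. Slc25a25 was 58.4 ± 13.3 CPM against 66.8 ± 9.21 CPM (SD, n = 4; 0.20 ± 0.17 (SE), adjusted p = 0.823). Carrier RNA summed to 4719 to 6803 CPM and 4506 to 6265 CPM. Macrophage markers there overlapped too, at 1012 to 2651 CPM and 1523 to 2454 CPM.

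The difference between the depots' responses was tested in 1 fit over the 16 libraries of D4. Of 39 carriers 1 was called, Slc25a20, whose change in BAT was lower than in SAT by -0.65 ± 0.17 (SE), adjusted p = 0.0366; 4.11% of all genes were called, 1.05% in that direction and 3.06% in the other. Slc25a20 passed in 8 of 23 alternative fits; it did not pass with library totals, in the fit of all 52 libraries, without the libraries over the muscle limit, or without any of 12 single libraries. Slc25a1 (-1.02 ± 0.34 (SE), adjusted p = 0.111) and Slc25a25 (1.07 ± 0.34 (SE), adjusted p = 0.0819) did not pass in this fit, although their changes in BAT were called. Both passed with DESeq2 (log2 differences of -1.03 and 1.06), and Slc25a25 also with library totals (1.35), without the filter on low counts (1.10) and without the libraries over the muscle limit (1.496), so whether these 2 differ between depots depends on the fit. Slc25a15 passed with DESeq2 (-1.25) and in the fit of all 52 libraries (-1.24). The median carrier was -0.27 in the interaction, while that of all genes was within 0.01 of 0.

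In D3 brown fat 3 of 39 carriers were called, 2 lower and 1 higher, where 3.52% of all genes were called, 1.29% lower and 2.24% higher. Groups without overlap were found for 15 of 39 carriers and for 24.5% of all genes tested. Slc25a25 again rose: 17.3, 29.2 and 12.7 CPM in the 3 DTR- libraries and 71.2, 46.6 and 80.7 CPM in the 3 DTR+ libraries do not overlap, and the change was 1.78 ± 0.32 (SE), adjusted p = 0.0245. Slc25a17 fell from 212 ± 14.4 to 139 ± 24.4 CPM (SD, n = 3; -0.59 ± 0.13 (SE), adjusted p = 0.026) and Slc25a3 from 1014 ± 98.7 to 682 ± 112 CPM (-0.55 ± 0.13 (SE), adjusted p = 0.0318). Slc25a1 read 3343, 2542 and 2137 CPM in DTR- and 945, 817 and 1651 CPM in DTR+ libraries, groups that do not overlap, but the change of -1.20 ± 0.33 (SE), adjusted p = 0.16 did not pass with this spread. Slc25a20 did not pass either (-0.36 ± 0.14 (SE), adjusted p = 0.19).

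The D3 calls rest on few libraries. Slc25a25 lost its call without the first DTR- or the first DTR+ library. No carrier was called without the first DTR- library, 1 was called without the second DTR-, the first DTR+ or the second DTR+ library, and with library totals alone Slc25a25 was the 1 that passed. With DESeq2 Slc25a1 (-1.22) and Slc25a44 (-0.52) joined the 3. The summed family went from 10281 to 12923 CPM to 7532 to 9069.7 CPM and macrophage markers from 163 to 282 CPM to 355 to 409 CPM. D3 subcutaneous fat gave 0 of 39 carriers by edgeR, 0% of all genes, 1 carrier under 0.05 before adjustment, and 0 by DESeq2. Its median carrier stood at -0.02.

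CL changed 9 of 38 carriers in DTR- brown fat, 6 higher and 3 lower, where 28.1% of all genes were called, 16.3% higher and 11.8% lower, so carriers were not called more often than genes at large in either direction. Groups without overlap were found for 17 of 38 carriers and for 46.1% of all genes tested. The median carrier stood at -0.09. Its 6 rises were in the calcium-regulated, cofactor and nucleotide, and unsettled classes, and its 3 falls in the acid and unsettled classes.

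Slc25a25 rose most. It read 3.64, 9.46 and 13.9 CPM in the 3 PBS libraries and 163, 113 and 161 CPM in the 3 CL libraries, a log2 change of 4.08 ± 0.36 (SE), adjusted p = 4.64e-06. The PBS libraries were low for this gene even among DTR- brown fat: D4 gave 23.0, 11.4, 32.5 and 15.3 CPM, D3 17.3, 29.2 and 12.7 CPM and the wild-type isotype group 24.0, 25.8 and 36.9 CPM. All 3 CL libraries lay above each of those. Its gene overlaps Naif1 on the opposite strand, which had 2911 counts over the fat libraries.

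Carriers of nucleotides and cofactors supplied 4 of the other rises. Slc25a51, which brings NAD into mitochondria, read 399.6, 544 and 453 CPM with PBS and 1006, 991 and 960.1 CPM with CL, a change of 1.17 ± 0.16 (SE), adjusted p = 0.000112. Slc25a42 read 201, 195 and 85.5 CPM and 625, 523 and 449 CPM (1.83 ± 0.27 (SE), adjusted p = 0.000318). For both genes the groups are well apart. The pyrimidine nucleotide carriers rose together: Slc25a36 (chr9:97074961-97111157, minus strand) from 45.5 ± 5.15 to 85.3 ± 3.57 CPM (SD, n = 3; 1.00 ± 0.18 (SE), adjusted p = 0.00131), and Slc25a33 from 28.4, 31.5 and 32.0 CPM to 66.1, 266 and 91.4 CPM (2.30 ± 0.42 (SE), adjusted p = 0.00187), with 1 CL library far above the other two.

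Slc25a34, with no settled substrate, rose from 45.6, 37.6 and 16.3 CPM to 146, 107 and 72.5 CPM (1.81 ± 0.40 (SE), adjusted p = 0.00581; gene at chr4:141618824-141623821, minus strand). Slc25a35, also without a settled substrate, fell from 204, 197 and 237 CPM to 63.2, 51.3 and 97.8 CPM (-1.49 ± 0.23 (SE), adjusted p = 0.000358). The acid carriers Slc25a11 and Slc25a1 fell, by log2 changes of -0.63 ± 0.15 (SE), adjusted p = 0.00729 and of -0.66 ± 0.22 (SE), adjusted p = 0.0395. Slc25a1 read 639.6, 1282 and 731 CPM against 512, 557 and 505 CPM, and its call was lost without any 1 of the 3 CL libraries, without the second PBS library, and in the fit of all 52 libraries.

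Slc25a20, Slc25a5 and Slc25a4, among the most abundant carriers of brown fat, were not called with CL. Slc25a20 stood at 1151 ± 102 CPM with PBS and 1229.7 ± 183 CPM with CL (SD, n = 3; 0.19 ± 0.17 (SE), adjusted p = 0.44), Slc25a5 at 1004 ± 161 and 974 ± 62.2 CPM, and Slc25a4 at 904 ± 90.2 and 748 ± 89.9 CPM. Slc25a37 missed the threshold (1.24 ± 0.44 (SE), adjusted p = 0.0502) and passed with DESeq2, with DESeq2's scaling factors in edgeR, without the filter on low counts and in the fit of all 52 libraries. In that last fit 7 carriers were called higher and 8 lower. Among 10 regulators of mitochondrial genes 5 rose and 1 fell: Ppargc1a, the coactivator induced by beta-adrenergic signals, changed by 4.89 ± 0.32, Ppara by 3.21 ± 0.28 and Srebf1 by -2.01 ± 0.21. Nuclear respiratory genes stayed mixed, with 1 of 29 higher and 2 lower (median -0.20). Of 7 genes around citrate and fatty acid synthesis 3 fell, Acaca by -1.96 ± 0.23 and Elovl6 by -1.56 ± 0.18 among them. Of 8 T and NK cell markers 4 were called lower with CL; the third PBS library held 143 CPM of these markers. Macrophage markers summed to 301 to 790.3 CPM with PBS and 191 to 207 CPM with CL with 3 of 8 lower, and endothelial markers to 180.2 to 301 CPM and 404 to 446 CPM with 3 of 5 higher. Of 6 general adipocyte markers 3 were lower and 1 higher, and of 13 mitochondrially encoded transcripts 4 were lower. The part of these shifts in the carriers' levels was not tested. Leaving out any 1 library gave 8 or 9 carriers.

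**Figure D4:**
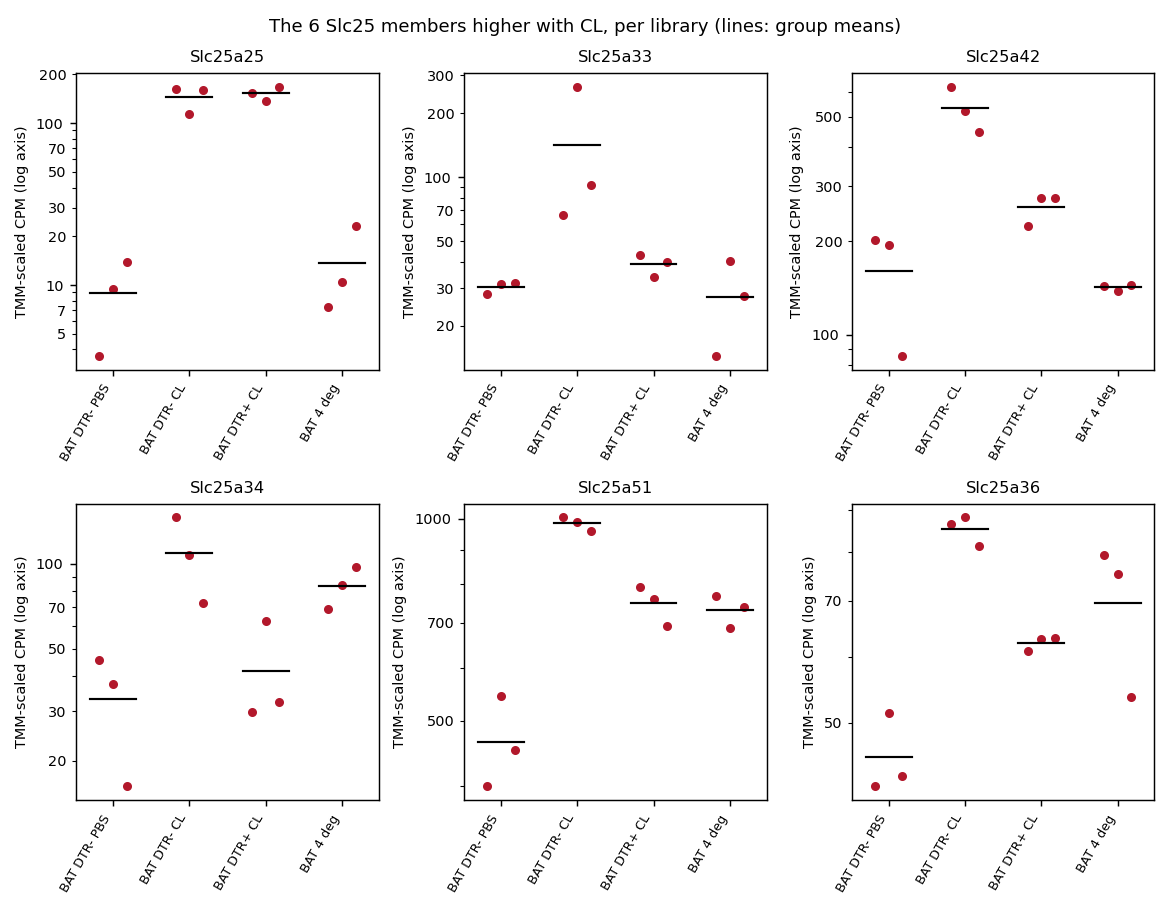
Levels in single libraries, CPM on a log axis, of the 6 carriers higher with CL, for the PBS, CL, DTR+ CL and 4 degree groups of BAT, 3 libraries each, with lines at group means. Slc25a25 is high in the 6 libraries given CL and not at 4 degrees. Slc25a34, Slc25a36 and Slc25a51 are above the PBS libraries in both the CL and the 4 degree group.

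Among mice given CL, DTR+ brown fat had 4 carriers lower than DTR- and none higher of 38, where 7.72% of all genes were called, 3.21% lower and 4.51% higher. The median carrier stood at -0.41. The DTR- CL libraries are the same that were set against PBS. Slc25a1 read 512, 557 and 505 CPM in the 3 DTR- libraries and 207, 227 and 188 CPM in the 3 DTR+ libraries, a change of -1.35 ± 0.23 (SE), adjusted p = 0.0046. Slc25a42 read 625, 523 and 449 CPM and 224, 274 and 275 CPM (-1.06 ± 0.27 (SE), adjusted p = 0.0296). Neither gene's groups overlap, as was so for 15 of 38 carriers and for 29.6% of all genes tested.

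Slc25a33 read 42.9, 34.1 and 39.9 CPM in the DTR+ libraries against 66.1, 266 and 91.4 CPM (-1.87 ± 0.41 (SE), adjusted p = 0.0191), and Slc25a39 444 ± 41.8 CPM against 669 ± 56.1 CPM (SD, n = 3; -0.60 ± 0.17 (SE), adjusted p = 0.0462). Slc25a25 did not follow them: it read 153, 138 and 168 CPM in DTR+ CL libraries, overlapping the DTR- CL libraries. Slc25a44 did not pass (-0.60 ± 0.18 (SE), adjusted p = 0.0604). It passed with DESeq2 (-0.62), with DESeq2's scaling factors in edgeR (-0.62) and in the fit of all 52 libraries (-0.59). Slc25a34 was not called either, and passed with DESeq2 (-1.43), with its scaling factors (-1.43) and without the filter on low counts (-1.40). Of 7 genes around citrate and fatty acid synthesis 4 were lower (median -1.50), Acly by -2.60 ± 0.30 and Fasn by -2.75 ± 0.32. None of 29 respiratory genes was called (median -0.25). Macrophage markers were 191 to 207 CPM in DTR- and 1009 to 1168 CPM in DTR+ libraries, and 7 of 8 were called higher; their part in the carriers' levels was not tested. The calls of Slc25a33 and Slc25a42 were lost without any 1 of the DTR+ libraries, and that of Slc25a42 also without the first or the second DTR- library. Slc25a39 lost its call without any 1 of the DTR- libraries and without the first or the third DTR+ library. Without the first or the third DTR+ library 1 carrier was called, and without the first or the second DTR- library 2 were. With library totals alone Slc25a24 was called higher (1.53) and 2 carriers, Slc25a1 and Slc25a33, lower, while the fit of all 52 libraries called 12 lower and 1 higher.

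PC61 left 2 of 39 carriers lower in wild-type brown fat and none higher, where 0.651% of all genes were called (0.486% lower). Slc25a32, the folate and FAD carrier, read 122, 161 and 134 CPM in the 3 isotype libraries and 68.2, 58.0 and 66.3 CPM in the 3 PC61 libraries, a change of -1.07 ± 0.14 (SE), adjusted p = 0.00226. Slc25a44 read 220.0, 247 and 238 CPM and 136, 167 and 144 CPM (-0.62 ± 0.12 (SE), adjusted p = 0.0289). In both genes the PC61 libraries lie below all isotype libraries. Overlap of the groups was absent in 10 of 39 carriers and in 16.7% of all genes tested. Slc25a1 read 1609, 2271 and 2433 CPM and 1043, 1426 and 1580.0 CPM and did not pass (-0.60 ± 0.18 (SE), adjusted p = 0.232).

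The median carrier with PC61 stood at -0.08, and family RNA summed to 9688 to 10302 CPM with isotype and 7131 to 8598 CPM with PC61. Muscle markers reached 6751 CPM in the second PC61 library, and with 2 libraries per group left under the limit of 1000 CPM, Slc25a42 was called higher (0.72), and Slc25a1 (-0.80) lower beside the original pair of calls. Slc25a1 also passed with DESeq2 (-0.61) and without the filter on low counts (-0.61), and Slc25a17 without that filter (-0.50). Fibroblast markers summed to 599.6 to 764 CPM with isotype and 976 to 1192 CPM with PC61, with 3 of 5 called higher, and their part in the carriers' levels was not tested. Neither Slc25a32 nor Slc25a44 passed in the fit of all 52 libraries. Slc25a44 also lost its call with library totals and without isotype library 2 or 3 or PC61 library 1 or 3; without the first isotype library 4 carriers were called.

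The anti-IFNg antibody gave 0 of 39 carriers called against isotype in DTR+ brown fat by edgeR, where 0.541% of all genes were called (0.0333% higher and 0.508% lower). Before adjustment 4 carriers were under 0.05, and DESeq2 called 0. The median carrier stood at 0.08. Slc25a1 read 281, 459 and 896 CPM with isotype and 634, 511 and 872 CPM with anti-IFNg, Slc25a20 591 ± 58.9 CPM and 677 ± 18.8 CPM (SD, n = 3), and Slc25a25 48.5, 75.5 and 53.6 CPM and 89.9, 65.2 and 90.4 CPM. The groups overlap for Slc25a1 and Slc25a25 and do not for Slc25a20. Overlap of the groups was absent in 8 of 39 carriers and in 13.3% of all genes tested.

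Brown fat at 4 degrees differed from the PBS libraries of the CL experiment in 6 of 39 carriers, 4 higher and 2 lower, where 8.66% of all genes were called (4.86% higher and 3.8% lower). The 2 groups come from different experiments with different labels, so cold and experiment cannot be told apart, and the PBS libraries are the controls of CL too. Of 6 brown adipocyte markers 2 were higher and 2 lower. Ucp1, which cold induces, was higher by 0.98 ± 0.14 and Elovl3 by 3.21 ± 0.44. Cidea and Cox8b were lower by log2 differences of -0.62 ± 0.14 and -0.52 ± 0.14. The median carrier stood at 0.15.

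Slc25a17 read 217, 241 and 292 CPM in PBS libraries and 466, 433 and 388 CPM at 4 degrees (0.75 ± 0.15 (SE), adjusted p = 0.0107), and Slc25a51 399.6, 544 and 453 CPM and 768, 688 and 738 CPM (0.62 ± 0.14 (SE), adjusted p = 0.0219). Slc25a34 read 69.3, 83.9 and 97.5 CPM at 4 degrees against 45.6, 37.6 and 16.3 CPM (1.31 ± 0.33 (SE), adjusted p = 0.0336). Slc25a39 was 1028 ± 10.2 CPM against 679 ± 124 CPM (SD, n = 3; 0.57 ± 0.15 (SE), adjusted p = 0.0427). For all 4 genes the libraries at 4 degrees lie wholly above PBS. Overlap of the groups was absent in 17 of 39 carriers and in 30% of all genes tested. The calls of Slc25a51, Slc25a34 and Slc25a39 were lost without any 1 of the libraries at 4 degrees, and that of Slc25a39 also without any 1 of the PBS libraries, that of Slc25a51 without the first and that of Slc25a34 without the second.

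On the other side, Slc25a35 fell to 90.5, 123 and 99.1 CPM from 204, 197 and 237 CPM (-1.06 ± 0.16 (SE), adjusted p = 0.00283), and Slc25a23, a calcium-regulated ATP-magnesium carrier, to 13.4, 20.7 and 14.8 CPM from 58.1, 54.6 and 38.6 CPM (-1.66 ± 0.25 (SE), adjusted p = 0.0034). Slc25a25, of the same calcium-regulated class, read 7.36, 10.5 and 23.2 CPM at 4 degrees and did not pass (0.57 ± 0.52 (SE), adjusted p = 0.568). Slc25a1 (-1.07 ± 0.52 (SE), adjusted p = 0.286) and the iron importer Slc25a28 (1.06 ± 0.32 (SE), adjusted p = 0.067) did not pass. Slc25a20 had its highest group mean here, 1459 ± 224 (SD, n = 3) CPM, beside 1151 ± 102 (SD, n = 3) CPM with PBS. It was not called against PBS, and its groups overlap.

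The choice of control bears on the cold calls. Against the DTR- BAT libraries of D3, 7 carriers were higher and 8 lower, and against the wild-type isotype libraries 7 were higher and 7 lower. Slc25a1 was lower at 4 degrees against both, by log2 differences of -2.69 and -2.35, as was Slc25a44 (-0.82 and -0.74), and Slc25a28 (1.19 and 1.55), Slc25a33 (1.504 and 1.552) and Slc25a45 (1.32 and 1.67) were higher. Slc25a39 turned to -0.02 against D3, and Slc25a51 and Slc25a34 did not pass against wild-type isotype. Slc25a25 was -0.58 against D3 and -1.14 against wild-type isotype, where it passed as lower, opposite in sign to its uncalled change against PBS. Without the second or the third library at 4 degrees 3 carriers were called. Endothelial markers summed to 525 to 678 CPM at 4 degrees and 180.2 to 301 CPM with PBS, with 4 of 5 called higher, and of 8 genes of branched-chain amino acid breakdown 5 were lower and 1 higher (median -0.63). Their part in the carriers' levels was not tested.

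**Figure D5:**
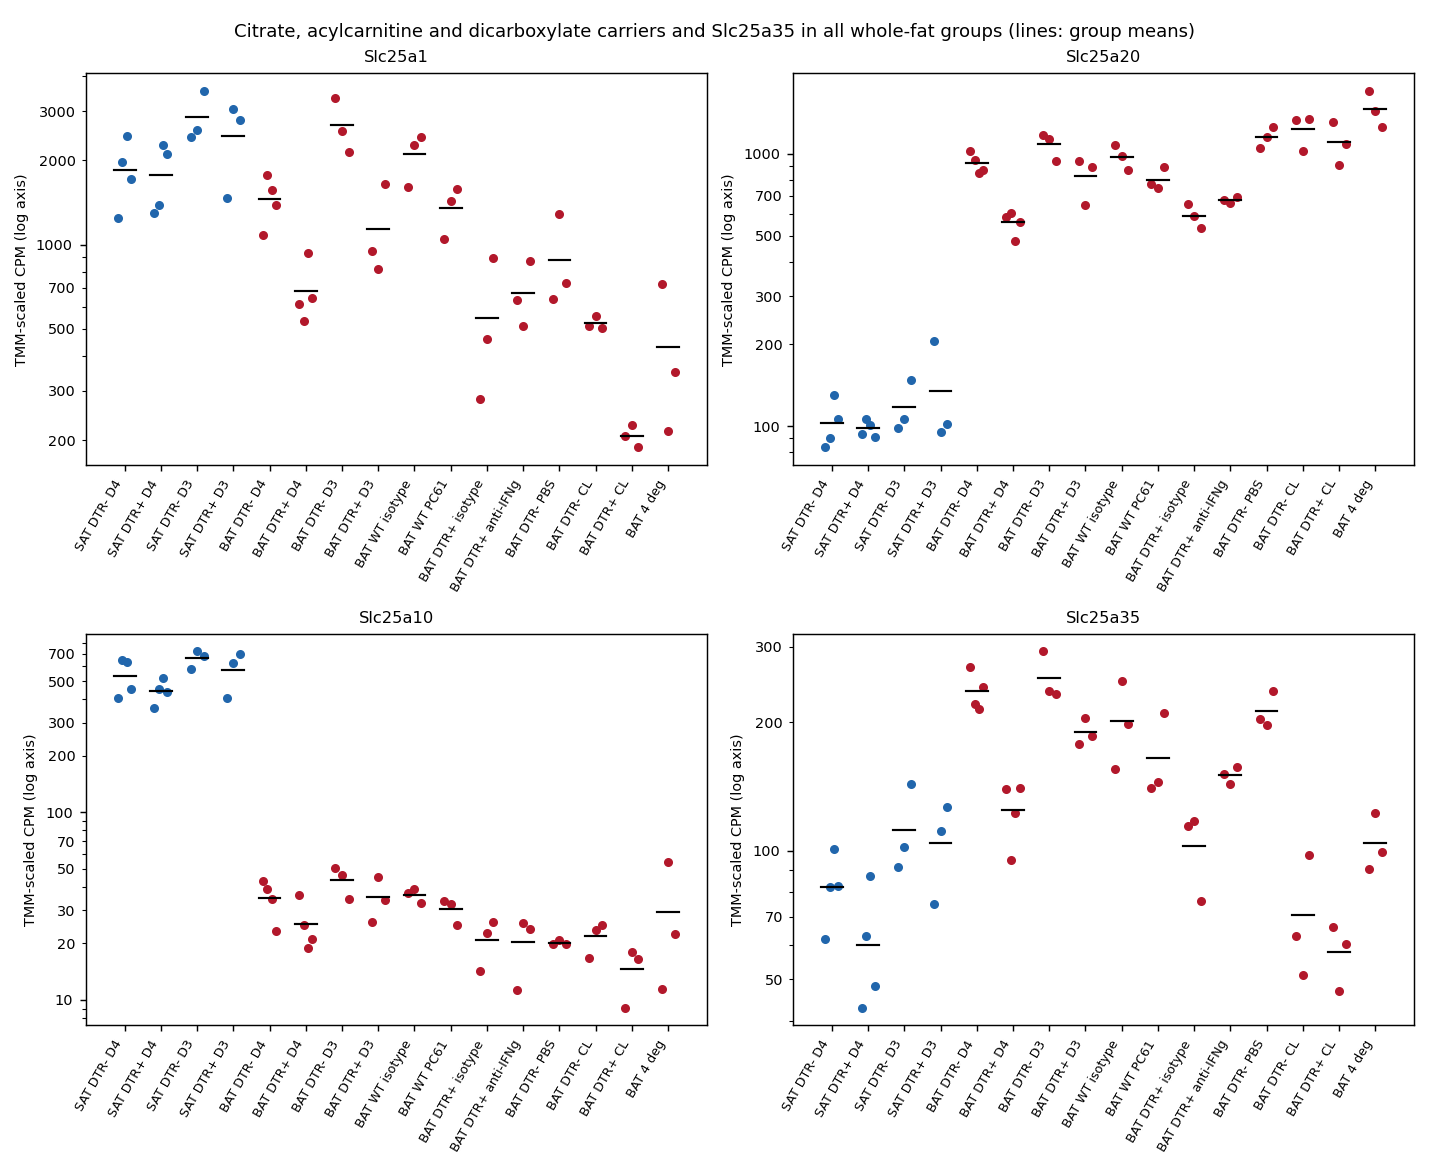
Slc25a1, Slc25a20, Slc25a10 and Slc25a35 in every whole-fat library, CPM on a log axis, by group, with lines at group means. In every SAT library Slc25a10 lies above all BAT libraries, and the DTR+ libraries of D4 BAT lie below the DTR- ones for Slc25a1, Slc25a20 and Slc25a35.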

How the data were processed

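RNA-seq of 52 whole-fat and 8 Treg libraries was analysed. Per the labels' protocols, 2 ng of whole-tissue RNA entered Smart-seq2 libraries with oligo(dT) priming and Nextera XT fragmentation. The submitters' processing notes name mm10, STAR 2.7.3a and featureCounts; for the strand setting and the annotation release, the sources used here give nothing. The values are the raw read counts per gene that the authors deposited in 1 table, 3007241 to 9673342 per whole-fat library, and intervals from them would cover counting error only. The 60 pairs of replicates lay further apart than counting error allows (chi-square over its degrees of freedom at least 7.14), so none was merged.

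Counts were filtered with filterByExpr, scaled by TMM and fitted with edgeR 4.0.16's robust quasi-likelihood test in R 4.3.3, with Benjamini-Hochberg adjustment over all genes tested at 0.05. Fits held the libraries of the comparison; the CL comparisons shared the 3 groups of that experiment and so the CL libraries. Standard errors are the log2 change divided by the root of F. The fit was tested on simulated counts. Levels per kilobase used the principal coding transcript of GENCODE M21. Promoter windows came from the RefSeq table of GRCm38.p6.

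The carriers called in each comparison were named, up to 12 per direction by p-value, with Slc25a1, Slc25a3, Slc25a4, Slc25a5, Slc25a10, Slc25a20, Slc25a28, Slc25a37 and Slc25a44 where they bore on a class, the 10 widest over groups, and up to 4 called genes per list. 1 carrier that enters the counts, sums and medians is not reported here. The members and lists were chosen with earlier results of these data known. Alternatives were DESeq2 1.42.0, its size factors (RLE) in edgeR, no filter, a replicate block, all 52 libraries in 1 fit, each library left out, and 2 other controls for 4 degrees. Library totals alone and the muscle limit were added after the data had been seen.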

Additional observations from a re-analysis of the deposited data

Results flagged for a closer look

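Single libraries stood apart from the other 3 of their group, by Dixon's test at the 95% level, in 5 of 156 tests of an expressed carrier in a group of 4 libraries; chance gives about 5%, or 1 in 20. In DTR- BAT of D4, Slc25a11 read 499 CPM in the first library against 375 to 384 CPM in the others, and Slc25a17 read 128 CPM in the fourth against 162 to 169 CPM. In DTR+ BAT of D4, Slc25a12, the aspartate-glutamate carrier of muscle and brain, read 30.3 CPM in the first library against 8.38 to 9.92 CPM, and that library also held 5411 CPM of muscle markers against 18.3 to 356 CPM in the other 3. In the same group Slc25a27 read 2.48 CPM in the third library against 1.22 to 1.30 CPM. In DTR+ SAT of D4, Slc25a15 read 12.6 CPM in the third library against 6.33 to 7.29 CPM.

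The effect of the DTR genotype on Slc25a20 in D4 was called different between the depots, by a log2 difference of -0.65 (BAT minus SAT), a tested interaction. That call was lost in 15 of 23 alternative fits, 12 of them with a single library left out. It was the 1 call among 39 carriers, where 4.11% of all genes were called. Slc25a13, which was under the expression limit in whole fat, was detected in all 8 libraries of sorted Treg cells, which enter no comparison of carriers here, at a median of 8.56 CPM and a range of 5.42 to 25.1 CPM.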

How the results depend on the processing

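Of 91 called results of single carriers, 60 kept their call in every alternative fit and 1 changed sign, Slc25a39 at 4 degrees, to -0.0167 against the D3 control. DESeq2, RLE factors and no filter kept all 91; library totals alone lost 22, the fit of all 52 libraries 6, the replicate block 5, the muscle limit 8 of 43, and leaving out single libraries 71 of 636. Slc25a25 at 4 degrees, uncalled against PBS, turned to -0.58 against D3 and to -1.14 against wild-type isotype, where it passed, and ranged from -0.0505 to 1.04 with libraries left out.

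Counts of called carriers moved by over 1.5 times as follows. D4 BAT (13) gave 5 with library totals and 8 under the muscle limit. The D4 interaction (1) gave 4 with DESeq2, 2 without the filter and 4 with the replicate block. D3 BAT (3) gave 5 with DESeq2, 1 with library totals and 5 without the filter. CL (9) gave 15 in the fit of all 52 libraries. DTR+ against DTR- under CL (4) gave 7 with DESeq2 and 13 in the fit of all 52 libraries. PC61 (2) gave 1 with library totals, 4 without the filter, 0 in the fit of all 52 libraries and 4 under the muscle limit. Anti-IFNg (0) gave 1 without the filter, Slc25a35 at 0.53. At 4 degrees (6) there were 3 with the replicate block, 10 in the fit of all 52 libraries, and 15 and 14 with the D3 and wild-type isotype controls. Except where an alternative by its construction has fewer libraries or another control, the cause was not tested.

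Leaving out 1 library in turn gave 11 to 13 carriers in D4 BAT, 0 to 0 in D4 SAT, 0 to 2 in the interaction, 0 to 4 in D3 BAT, 0 to 0 in D3 SAT, 26 to 28 and 25 to 27 between depots in D4 and D3, 8 to 9 with CL, 1 to 5 for genotype under CL, 1 to 4 with PC61, 0 to 0 with anti-IFNg and 3 to 7 at 4 degrees. Where a group was left with 2 libraries the spread was pooled over groups. Expressed members numbered 41 at a mean of at least 0.5 CPM and 38 at 2.

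Equal replicate numbers are not said to mark shared animals. Correlations of the deviations of same-numbered libraries were over 0.1 throughout in no comparison; they ran from 0.06 to 0.10 in D4 SAT, where 7 of 8 libraries correlated best with their own number, and from 0.04 to 0.12 between depots in D4. The replicate block called no carrier in D4 SAT. With it Slc25a25 in D3 BAT, Slc25a39 for genotype under CL, and Slc25a34, Slc25a39 and Slc25a51 at 4 degrees did not pass, while Slc25a1 (-1.03), Slc25a15 (-1.25) and Slc25a25 (1.12) passed in the D4 interaction, Slc25a1 with PC61 (-0.60), Slc25a37 with CL (1.30), Slc25a34 for genotype under CL (-1.38), Slc25a39 (-0.25) and Slc25a42 (-0.36) in D4 BAT, and Slc25a1 between depots in D4 (-0.30). For the anti-IFNg comparison, and for it alone, no such fit was made: No paired analysis was possible because its 2 groups share 1 number. Carriers near 1 CPM rest on few counts, which limits the precision of their changes.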

Other observations

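The 8 libraries of Treg cells were sorted from BAT (2), SAT (3) and spleen (3) of B6.Foxp3.Thy1.1 reporter mice. Fat cell markers in them summed to at most 1.93 CPM for the brown adipocyte list and 3.19 CPM for the general adipocyte list. Markers of B cells summed to 761 to 1281 CPM and endothelial markers to 121 to 331 CPM. Counts over 3 in all 8 libraries were found for 36 of the 47 carriers. Slc25a3 had a median of 743 CPM, Slc25a5 of 462 CPM and Slc25a4 of 136 CPM. Slc25a12, the aspartate-glutamate carrier, had a median of 107 CPM (86.0 to 127) beside a mean of 11.7 CPM over whole fat. Slc25a45 had a median of 65.9 CPM (57.5 to 94.4) beside a mean of 7.28 CPM. The whole-fat values are means rather than medians and, like the Treg values, are CPM by library totals without TMM. These 2 carriers were picked after their values were seen. Slc25a34 stayed at or under 0.638 CPM and Slc25a48 at or under 0.771 CPM in every Treg library. No read was counted for Slc25a21 or Slc25a31.

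Among Treg sources, Slc25a24, a calcium-regulated ATP-magnesium carrier, averaged 48.7 CPM in the 2 BAT libraries, 50.9 CPM in the 3 SAT libraries and 17.8 CPM in the 3 spleen libraries. Slc25a33 averaged 24.0, 10.9 and 4.33 CPM in the same order, and Slc25a20 44.4, 67.6 and 47.5 CPM. These differences were not tested here, and both Slc25a24 and Slc25a33 were picked after their values were seen.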
